A study of Mus musculus with 4 samples.

Results

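The genes described here are 10 genes of the WNT pathway: the ligand genes Wnt3a and Wnt8a, the nuclear effector genes Tcf7 and Lef1, the feedback inhibitor genes Axin2 and Nkd1, and the target genes Sp5, Cdx1, Ccnd1 and T. They were chosen by name, as every array probe whose target name is AXIN2, SP5, CDX1, CCND1, NKD1, LEF1, TCF7, WNT3A, WNT8A or T, which gave 20 of 45281 probes and 10 of 31490 target names. All 10 genes had a probe that passed the detection filter and entered the test across 14572 genes. 15 of their 20 probes passed it.

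Illumina bead arrays measured RNA of 4 samples of mouse embryonic stem cells, which compares lines established with 2i and without it. On the 2i-derived side stood 2i-RFP+ and 2i-RFP-, each on 2 arrays and each from strain C57/B6 at its passage 5. The standard-derived side consisted of AFF204#21 (C57/B6, passage 11) and of R1 (129, passage 26), which had 1 array each. All lines were kept without 2i after they were established, on feeders, so the samples share standard culture at the time RNA was taken. The arrays of 2i-RFP+ and 2i-RFP- both carry the stem 2imES#1 in their names, which leaves it unsettled whether they are separate lines. What RFP reports is not stated. Separate cultures are stated for neither group, and a p-value here covers no more than the spread among these samples, which may be technical. The labels give no sex, and genes of chromosomes X and Y differed between the groups. Derivation, passage number, the sex chromosomes a line carries and, for R1, strain cannot be told apart.

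In canonical WNT signalling a secreted ligand binds a Frizzled and LRP receptor, which stops the destruction complex of Axin, APC and GSK3 from marking beta-catenin for degradation. Beta-catenin then enters the nucleus and acts with TCF and LEF factors on target genes, among them Axin2, which feeds back on the pathway. 2i usually denotes inhibitors of MEK and of GSK3, and GSK3 inhibition acts on the same step as a WNT signal. In embryonic stem cells WNT signalling is known to favour self-renewal, and in the embryo it is known for inducing the primitive streak, which expresses T, Wnt3a and Wnt8a.

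Promoter windows of Sp5, T and Axin2 are shown because Sp5 and T differed between samples in unlike ways and Axin2 is the usual readout of the pathway. The windows, from RefSeq for GRCm38.p6, run from 250 bases before the annotated start to 50 after it, and are written 5′ to 3′ on the gene's strand. Capitals mark matches to the TCF and LEF core letters, CTTTG followed by AA, AT, TA or TT, on either strand.
Sp5 (chr2:70474673-70474972, plus strand): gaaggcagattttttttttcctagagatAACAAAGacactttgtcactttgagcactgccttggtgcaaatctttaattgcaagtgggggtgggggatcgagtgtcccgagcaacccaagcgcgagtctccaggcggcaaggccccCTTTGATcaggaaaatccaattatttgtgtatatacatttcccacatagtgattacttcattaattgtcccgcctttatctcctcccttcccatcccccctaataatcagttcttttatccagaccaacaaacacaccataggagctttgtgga
T (chr17:8434173-8434472, plus strand): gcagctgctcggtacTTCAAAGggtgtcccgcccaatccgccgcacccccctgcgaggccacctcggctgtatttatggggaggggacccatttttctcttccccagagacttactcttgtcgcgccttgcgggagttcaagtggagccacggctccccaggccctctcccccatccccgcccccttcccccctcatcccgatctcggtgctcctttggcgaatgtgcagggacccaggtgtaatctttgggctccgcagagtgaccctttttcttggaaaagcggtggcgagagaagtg
Axin2 (chr11:108920099-108920398, plus strand): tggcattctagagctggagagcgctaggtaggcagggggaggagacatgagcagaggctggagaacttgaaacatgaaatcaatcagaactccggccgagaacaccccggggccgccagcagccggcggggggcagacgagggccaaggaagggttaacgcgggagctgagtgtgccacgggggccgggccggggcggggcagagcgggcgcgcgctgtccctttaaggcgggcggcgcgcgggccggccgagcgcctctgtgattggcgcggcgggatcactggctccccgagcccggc
The Sp5 window held 2 matches, which do not overlap, the T window held 1 and the Axin2 window 0. With the annotated start at 0, the Sp5 matches begin at -222 (AACAAAG, the reverse strand of CTTTGTT) and -104 (CTTTGAT), and the T match at -235 (TTCAAAG, the reverse strand of CTTTGAA). Of 7 genes with a window searched, 3 had a match in at least 1 window, the other being Lef1 in 1 of its 4 windows. No window of Ccnd1, Cdx1 or Wnt8a was searched. Counted by window, 3 of the 11 searched held a match, and of all 32851 windows of 300 bases 16.9% did. The count by gene has no such background, since a gene with several windows has more chances of a match. A match is a stretch of letters, and no match says only that these letters are absent from the window.

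Most of the 10 WNT genes stood lower in the 2i-derived samples. They were chosen with earlier results of these data known, so their counts beside those of all genes are a description only. 8 lay below and 2 above the standard-derived samples, where 52.7% of all genes lay below, with a median log2 difference of -0.73, against -0.02 over all genes tested. The lowest were Sp5 (-1.83), Cdx1 (-1.43) and Wnt3a (-1.37), and Wnt8a went the other way (1.03). None passed limma's threshold of an adjusted p under 0.05, and 6 of the 10 had an unadjusted p under 0.05, against 20.9% of all genes. At the adjusted threshold 0.165% of all genes were called, and 0.0618% of all genes were called as lower in the 2i-derived samples. With AFF204#21 left out limma called 8 of the 10 and with R1 left out 6, where the lone line is assumed to vary as little as 2i-RFP+ and 2i-RFP- do, and those fits called 45.3% and 36.6% of all genes. With 2i-RFP+ or 2i-RFP- left out it called 0. At an adjusted p under 0.10, Cdx1, Wnt3a, Sp5 and Axin2 passed, all lower, where 4.25% of all genes passed and 1.7% did so as lower. Of these, Wnt3a met the detection filter only with the help of the standard-derived lines, where it is high, so its pass adds no support. In 6 of the 10 genes every 2i-derived sample lay below every standard-derived sample, against 29.6% of all genes, and in 1 every 2i-derived sample lay above, against 26.1%. Set against AFF204#21 only, the median was -0.40, and against R1 only it was -0.77, both with the same 2i-derived samples, and without 2i-RFP- it was -0.43. In these bulk samples fewer cells of a type and less RNA per cell cannot be told apart.

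Other features of the samples moved with these differences. Wnt3a, Tcf7 and Axin2 lie on chromosome 11, whose 884 genes had a median of -0.22 (-0.34 against AFF204#21 and -0.15 against R1). Less the median of -0.22, their log2 differences were -1.14, -0.28 and -0.76. With no median taken off, Wnt3a had -1.54 against AFF204#21 and -1.19 against R1, Tcf7 -0.43 and -0.59, and Axin2 -0.998 and -0.96. Genes of the sex chromosomes stood further apart. The 382 tested genes of chromosome X had a median of 0.60 (0.59 against AFF204#21 and 0.57 against R1), and the 4 of chromosome Y had -1.65 (-1.54 against AFF204#21 and -1.77 against R1). Of the 10 WNT genes 0 lie on chromosome X, and the part of the sex chromosomes in the results was not tested. Of 11 tested feeder markers 10 lay below 0, with a median of -0.42 and summed normalized intensities of 10668 in 2i-RFP+ and 8762 in 2i-RFP-, against 10759 in AFF204#21 and 13737 in R1. Against AFF204#21 alone the feeder median was -0.04, where that of the 10 WNT genes was -0.40. Postn had no detected probe, and the part of feeder RNA in the results was not tested. Of 4 tested primitive endoderm genes 3 lay below 0 (median -0.40), and Gata4, Sox17, Foxa2 and Afp had no detected probe. Sox7 went the other way and had the widest difference of the 4 (1.09, limma adjusted p = 0.205). All 10 stem cell markers were tested, with 6 above and 4 below 0 and a median of 0.03. Among them Zfp42 read far higher in R1 (12.83) than in AFF204#21 (9.29), 2i-RFP+ (9.48) and 2i-RFP- (9.67). Between 42.3% and 43.9% of probes were detected per array.

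**Figure D1:**
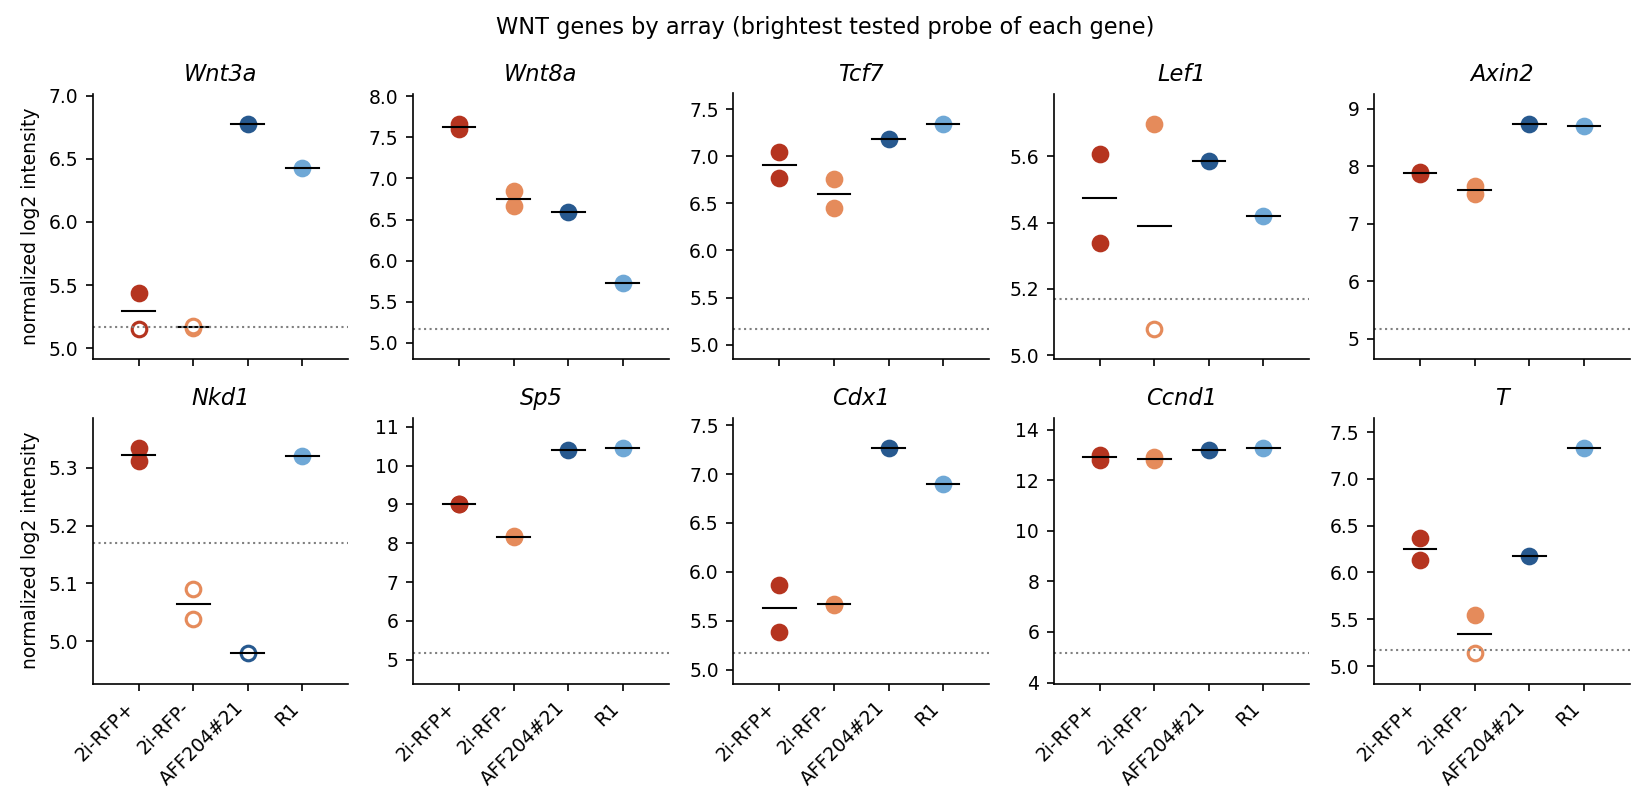
Normalized log2 intensity (vertical axis) of the brightest tested probe of each of the 10 WNT genes in 2i-RFP+, 2i-RFP-, AFF204#21 and R1. Each point is 1 array, filled where the probe was detected (detection p under 0.05) and open where it was not, black bars are sample means, and the dotted line is the lowest value of a detected probe on any array. Sp5, Cdx1, Wnt3a and Axin2 lie lower in both 2i-derived samples, Wnt8a lies highest in 2i-RFP+, and T lies highest in R1.

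Values below are normalized log2 intensities, and a difference of 1 is a 2-fold change. They compare samples for a given probe, and levels of different genes are not compared. Beads of a probe numbered 23 to 64 per array, and the standard error over beads was 1.92% to 10.2% of the intensity. Repeat arrays of the same 2i-derived sample differed by a median of 0.21 and at most 0.62 over the 15 tested probes.

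Wnt3a, a ligand of the canonical pathway that is needed for paraxial mesoderm, read 5.15 and 5.44 on the arrays of 2i-RFP+ and 5.16 and 5.18 on those of 2i-RFP-, against 6.77 in AFF204#21 and 6.43 in R1. It was near background in the 2i-derived samples, where 1 of 4 arrays detected it, and clearly above it in both standard-derived lines. The group means were 5.23 ± 0.09 against 6.60 ± 0.25 (SD, n = 2 each), a log2 difference of -1.37 ± 0.18 (SE, adjusted p = 0.0671). With the lower group near background, the size of this 2.58-fold difference is uncertain, and without background correction the log2 difference was -0.89. Wnt3a met the detection filter only with the help of the standard-derived lines, where it is high, so its test adds no support.

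Wnt8a, a ligand expressed in the early primitive streak, showed the opposite order. Its brightest probe read 7.66 and 7.60 in 2i-RFP+ and 6.66 and 6.85 in 2i-RFP-, against 6.59 in AFF204#21 and 5.73 in R1. The samples thus ran from 2i-RFP+ down to R1, and 2i-RFP- and AFF204#21 differed by less than the repeat arrays of 2i-RFP-, taking their means of 6.75 and 6.59. The log2 difference between groups was 1.03 ± 0.43 (SE, adjusted p = 0.274), with 0.60 against AFF204#21 and 1.47 against R1, and 0.52 in the authors' deposited log2 values. A second probe gave 0.63 (adjusted p = 0.484 in a fit over all detected probes), with overlapping groups, since it read 6.57 in 2i-RFP- and 6.87 in AFF204#21. The third was detected on 1 of 6 arrays. Wnt3a and Wnt8a, both ligands, therefore lay in opposite directions between groups.

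Of the nuclear effectors, Tcf7, which encodes the factor TCF1, read 6.77 and 7.04 in 2i-RFP+ and 6.45 and 6.75 in 2i-RFP-, against 7.18 in AFF204#21 and 7.34 in R1. The groups did not overlap, but the higher array of 2i-RFP+ lay closer to AFF204#21 than to its own repeat array, which differed from it by 0.27. The log2 difference was -0.51 ± 0.18 (SE, adjusted p = 0.228), and the second probe gave -0.69 (adjusted p = 0.141 in the fit over all probes). Lef1, the related factor gene, lay close to background throughout, and 3 of its 4 probes were detected on 0 of the 6 arrays. The remaining probe had bead intensities of 80.4 and 76.3 in 2i-RFP+ and 87.7 and 66.1 in 2i-RFP-, against 79.4 in AFF204#21 and 74.8 in R1. These overlap, and the log2 difference of -0.07 (adjusted p = 0.805) was smaller than the 0.62 between the repeat arrays of 2i-RFP-.

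Axin2, the scaffold of the destruction complex that beta-catenin itself induces, read 7.90 and 7.87 in 2i-RFP+ and 7.64 and 7.51 in 2i-RFP-, against 8.73 in AFF204#21 and 8.69 in R1. Both standard-derived lines were nearly alike, and all 4 arrays of the 2i-derived samples lay below them. The means were 7.73 ± 0.22 against 8.71 ± 0.03 (SD, n = 2 each), which is 1.97-fold lower in the 2i-derived samples (log2 difference -0.98 ± 0.17, SE, adjusted p = 0.0899). Nkd1, which binds Dishevelled and dampens the pathway, was at the edge of detection, on 2 of 4 arrays against 1 of 2. Its tested probe had intensities of 71.9 and 75.5 in 2i-RFP+ and 65.9 and 66.4 in 2i-RFP-, against 61.2 in AFF204#21 and 71.8 in R1. The groups overlapped, and the log2 difference was 0.04 (adjusted p = 0.918).

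Sp5, a zinc finger factor directly induced by beta-catenin, had the widest difference of the 10 genes between groups. It read 9.02 and 9.01 in 2i-RFP+ and 8.15 and 8.19 in 2i-RFP-, against 10.40 in AFF204#21 and 10.44 in R1. Repeat arrays of the 2i-derived samples differed by at most 0.04, so 2i-RFP- lay below 2i-RFP+ by more than its repeats. AFF204#21 and R1 lay above both and differed by 0.04, with 1 array each and thus no measure of array error. The means were 8.59 ± 0.60 against 10.42 ± 0.03 (SD, n = 2 each), a 3.56-fold lower level (log2 difference -1.83 ± 0.30, SE, adjusted p = 0.0863).

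Cdx1, a caudal homeobox gene that WNT signals induce in the embryo, read 5.39 and 5.86 in 2i-RFP+ and 5.66 and 5.68 in 2i-RFP-, against 7.26 in AFF204#21 and 6.90 in R1. The groups stood apart by more than the 0.48 between the repeat arrays of 2i-RFP+, with a log2 difference of -1.43 ± 0.18 (SE, adjusted p = 0.0671). Its second probe was detected on 0 of 4 arrays of the 2i-derived samples and on both standard-derived arrays, which puts it at least 2.64-fold lower there. That bound sets the mean of the standard-derived lines against, per array, the higher of the lowest detected value and the probe's own value. The measured means of this probe were 4.79 against 6.60. It passed the detection filter only through the standard-derived lines, where it is high, so its test adds no support.

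Ccnd1, which encodes cyclin D1, was high everywhere and differed little. Its brightest probe read 12.80 and 13.00 in 2i-RFP+ and 12.92 and 12.78 in 2i-RFP-, against 13.18 in AFF204#21 and 13.25 in R1. The groups did not overlap, and the 2i-derived samples were 1.27-fold lower (log2 difference -0.34 ± 0.07, SE, adjusted p = 0.112), against a log2 difference of 0.20 between the repeat arrays of 2i-RFP+. The other probes gave -0.33 and -0.22 (adjusted p = 0.13 and 0.556 in the fit over all probes).

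T, which encodes the T-box factor Brachyury of the primitive streak, read 6.13 and 6.36 in 2i-RFP+ and 5.55 and 5.14 in 2i-RFP-, against 6.17 in AFF204#21 and 7.33 in R1. R1 was highest, 2i-RFP- lowest and near background, and 2i-RFP+ and AFF204#21 did not differ beyond the repeat arrays. The groups overlapped, and the log2 difference of -0.95 ± 0.51 (SE, adjusted p = 0.36) was -0.38 against AFF204#21 and -1.53 against R1.

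**Figure D2:**
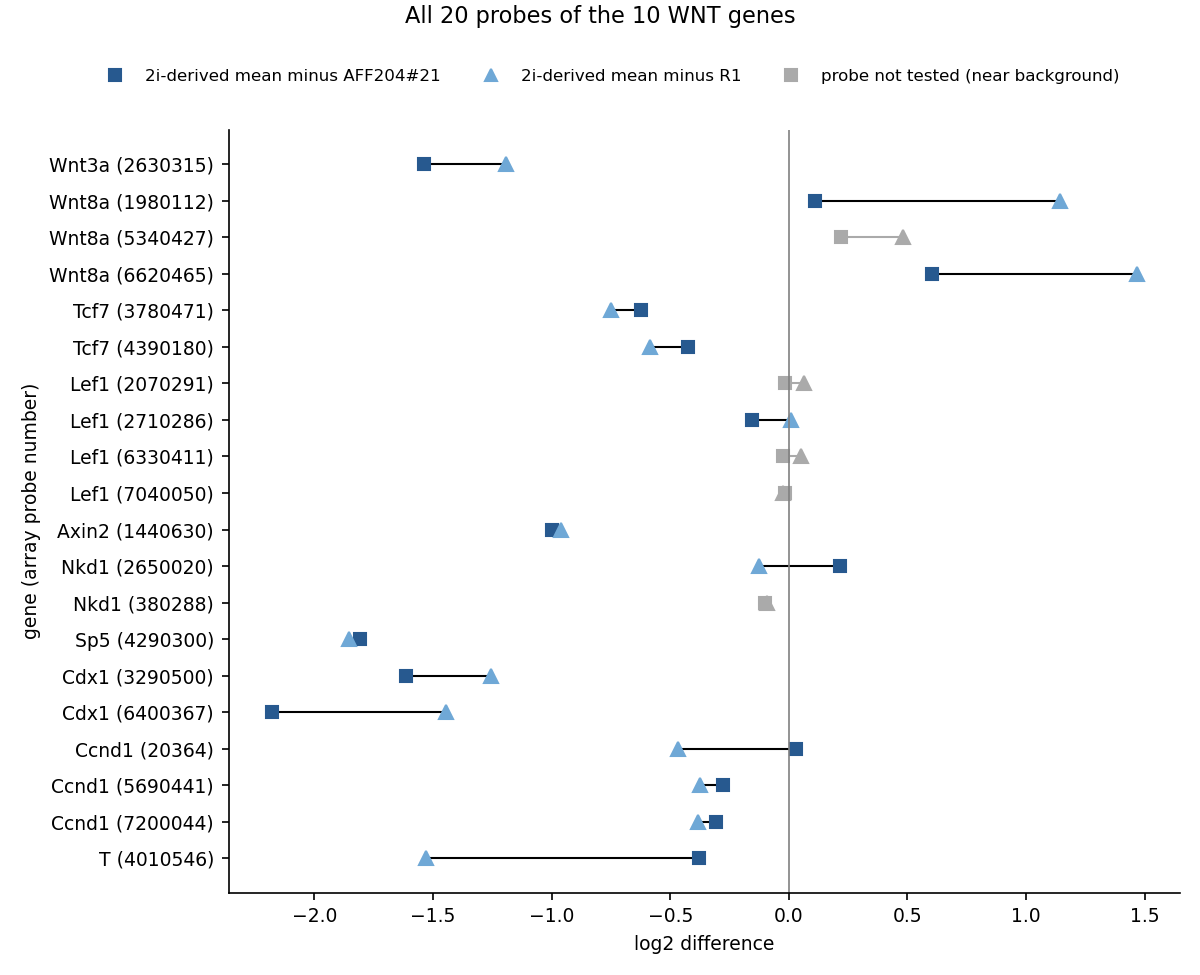
Log2 difference (horizontal axis) of the mean of the 2i-derived samples minus AFF204#21 (squares) and minus R1 (triangles) for each of the 20 probes (vertical axis), with lines joining the values of a probe. Grey probes were not tested. Both Cdx1 probes and both Tcf7 probes lie below 0 against either line, the Wnt8a probes lie above 0, and T lies farther below 0 against R1 (-1.53) than against AFF204#21 (-0.38).

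Set against each standard-derived line on its own, which gives no test, Sp5, Axin2 and the brightest Ccnd1 probe had like differences. T differed more from R1, and Cdx1 and Wnt3a more from AFF204#21. The other Ccnd1 probes had 0.03 and -0.28 against AFF204#21, and -0.47 and -0.38 against R1. At a 2-fold rule, 3 of the 10 genes (Sp5, Cdx1 and Wnt3a) were lower than in AFF204#21, against 2.02% of all genes, and 0 were higher, against 2.27%. The same genes and T were lower than in R1, 4 of 10 against 3.12%, and Wnt8a was higher, 1 of 10 against 4.78%. Axin2 lay just outside the rule, with -0.998 against AFF204#21 and -0.96 against R1. Sp5 had -1.81 against AFF204#21 and -1.85 against R1, Cdx1 -1.61 and -1.25, and Wnt3a -1.54 and -1.19.

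Between AFF204#21 and R1 the widest differences among the 10 genes were those of T and Wnt8a, in opposite directions. T was 2.22-fold lower in AFF204#21 than in R1, with 6.17 against 7.33, the 1 of 10 genes past the 2-fold rule, against 2.22% of all genes. In the other direction 0 of 10 passed it, against 3.49%. Wnt8a was 1.82-fold higher in AFF204#21, with 6.59 against 5.73, and its second probe gave a log2 difference of 1.03. The other differences ran from -0.34 for Nkd1 to 0.36 for Cdx1, and Axin2 and Sp5 differed by 0.04 and -0.04. There is 1 sample of each line and no replicate check.

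2i-RFP+ and 2i-RFP- were nearly alike over all genes, yet Sp5, T and Wnt8a were among the few that differed. T was 1.87-fold, Wnt8a 1.83-fold and Sp5 1.80-fold higher in 2i-RFP+. Over the 4 pairings of their arrays the log2 differences spanned 0.58 to 1.23 for T, 0.75 to 1.00 for Wnt8a and 0.82 to 0.87 for Sp5, so arrays did not overlap. Only 28 of 14572 genes, 0.192%, were at least 1.5-fold higher, a fold chosen after the values were seen, and these 3 of the 10 were among them. All 4 pairings lay above 0 in each of the 28, so that trait was not particular to these 3. In the authors' deposited log2 values 6 genes passed that fold, 1 of them among the 10. Past 2-fold, 0 of the 10 were higher, against 0.0206% of all genes, and 0 were lower, against 0.00686%. The differences were smaller in some other processing, with 0.57 for T without background correction, and 0.55 for Wnt8a and 0.78 for Sp5 in the deposited values. On array A of each sample alone T had 0.58, Wnt8a 1.00 and Sp5 0.88. Axin2 had 0.31. Tcf7 had 0.31 by its brightest probe and -0.28 by the other. By brightest probes 9 of the 10 genes lay above 0, against 50.8% of genes, and on array A of each sample alone 6 did. Cdx1 had -0.04 and Ccnd1 0.05.

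Genes of the primitive streak and mesoderm showed the same direction between these samples. All 7 tested genes of that list, which includes T, Wnt3a and Wnt8a, were above 0, against 50.8% of all genes. The list median was 0.79, against 0.00 over all genes. T and Wnt8a were already given above as high. Evx1 (0.11), Wnt3a (0.13) and Gsc (0.23) differed less, and on array A alone Wnt3a had -0.0035. Another 7 genes of the list had no probe past the filter. Fgf8, a growth factor of the streak, read 8.31 and 8.05 in 2i-RFP+, against 7.35 and 7.26 in 2i-RFP- (1.84-fold). Eomes, a T-box factor, read 6.93 and 6.94 in 2i-RFP+, against 6.00 and 6.29 in 2i-RFP- (1.74-fold). Fgf5, a gene of the later epiblast, and the ligand gene Wnt5b were also among the 28, with 1.74-fold and 1.55-fold. Fgf5 and Wnt5b were picked after their values were seen. Feeder fibroblast markers lay higher in 2i-RFP+ as well, 10 of 11 tested, with a median of 0.20 and summed normalized intensities of 10668 in 2i-RFP+ against 8762 in 2i-RFP-. Their part in the result was not tested. There is 1 sample of each, so the difference has no replicate check.

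Between derivations the same list had no common direction, with 3 of 7 genes above 0 and a median of -0.19. Fgf8 averaged 8.18 in 2i-RFP+ and 7.31 in 2i-RFP-, against 5.43 in AFF204#21 and 7.18 in R1, a log2 difference of 1.44 (adjusted p = 0.307). Its level thus differed more between the standard-derived lines than between the 2i-derived samples. Eomes had 0.60, Gsc, a homeobox gene of the organizer, -0.19 and Evx1, a homeobox gene of the streak, -0.44 (adjusted p = 0.372, 0.547 and 0.606). Evx1, like T, read highest in R1, with 7.40 in 2i-RFP+ and 7.29 in 2i-RFP-, against 7.17 in AFF204#21 and 8.41 in R1.

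**Figure D3:**
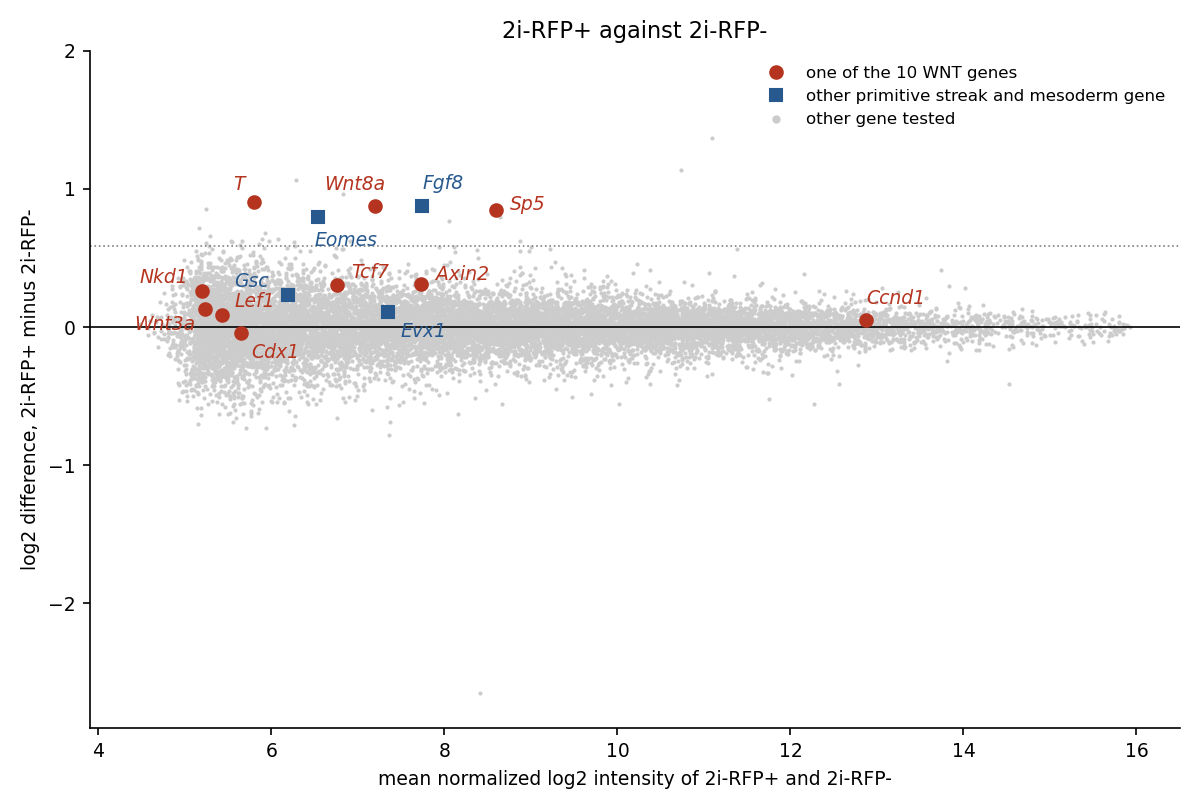
Log2 difference of 2i-RFP+ minus 2i-RFP- (vertical axis) against the mean normalized log2 intensity of both samples (horizontal axis), each point a gene. Red circles are the 10 WNT genes, blue squares other primitive streak and mesoderm genes, and the dotted line marks 1.5-fold. T (0.90), Wnt8a (0.88), Fgf8 (0.88), Sp5 (0.85) and Eomes (0.79) stand above the line, and Axin2 and Tcf7 below it.

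Beyond the 10 genes, other beta-catenin targets also lay mostly lower in the 2i-derived samples, with a median closer to 0. Of 11 other tested targets of the list, 10 lay below 0, against 52.7% of all genes, with a median of -0.22 (-0.12 against AFF204#21 and -0.40 against R1), and in 5 every 2i-derived sample lay below every standard-derived one, against 29.6% of all genes. By limma 0 passed the threshold and 3 of 11 had an unadjusted p under 0.05, near the 20.9% of all genes. Cdx2, a caudal homeobox gene, read 5.79 in 2i-RFP+ and 5.34 in 2i-RFP-, against 7.53 in AFF204#21 and 6.88 in R1 (log2 difference -1.64, adjusted p = 0.0954). The homeobox gene Msx2 and the growth regulator Myc had -0.63 each (adjusted p = 0.134 and 0.137). Lgr5, Rnf43, Znrf3, Dkk1 and Cdx4 had no probe that passed the detection filter.

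The components that carry the signal showed no common direction. Of 16 tested cytoplasmic genes 8 lay above and 8 below 0, with a median of -0.03. Ctnnb1, beta-catenin itself, had -0.11, the kinase gene Gsk3b 0.10, the scaffold gene Axin1 0.04 and the scaffold gene Apc 0.40 (adjusted p = 0.434, 0.692, 0.868 and 0.281). The phosphatase subunit gene Ppp2r5d had -0.37 and the tankyrase gene Tnks, whose product marks Axin for degradation, 0.52 (adjusted p = 0.149 and 0.189). Of 10 receptor genes 6 lay above 0, with a median of 0.08, and those with the smallest p were Fzd5 (-1.06), Fzd2 (-0.72) and Fzd3 (-0.37), which encode Frizzled receptors, and the coreceptor gene Lrp6 (0.55), with adjusted p of 0.201, 0.214, 0.246 and 0.252.

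Of 14 nuclear genes 5 lay above 0, with a median of -0.15. The target named TCF3 read 12.48 in 2i-RFP+ and 12.55 in 2i-RFP-, against 12.03 in AFF204#21 and 11.87 in R1, a log2 difference of 0.56 ± 0.09 (SE, adjusted p = 0.0879). That name has been used both for Tcf7l1, a repressor of WNT targets in stem cells, and for the E2A gene, and the array also has a target with the older E2A name TCFE2A (0.31, adjusted p = 0.392). Which gene the TCF3 probe reads is not settled here. Ctnnbip1, an inhibitor that keeps beta-catenin from TCF factors, had -0.65, Pygo1 of the beta-catenin coactivator complex 0.51, the corepressor gene Tle4 -0.24 and Tcf7l2 -0.50 (adjusted p = 0.138, 0.182, 0.195 and 0.303). A list of 8 genes drawn up as naive-state genes repressed by Tcf7l1, which also holds the meiosis gene Stra8 (detected on 1 of 4 arrays against 1 of 2), had 3 above 0 and a median of -0.13. The pluripotency factor gene Nanog had 0.37, and the factor genes Tfcp2l1 and Esrrb had -0.36 and -0.21 (adjusted p = 0.173, 0.201 and 0.39). The factor gene Prdm14 had 0.66, but was detected on 3 of 4 arrays against 0 of 2. It passed the filter only through the 2i-derived samples, where it is high, so the size of its difference is uncertain.

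Among 8 tested ligand genes 3 lay above 0, with a median of -0.14. Wnt6 had -0.53 and Wnt5a -0.28 (adjusted p = 0.181 and 0.542), and the 11 other ligand genes, Wnt3 among them, had no probe past the filter. Porcn, whose product lipidates WNT proteins for secretion, had 0.65, with 1.08 against AFF204#21 and 0.21 against R1 (adjusted p = 0.313). It lies on chromosome X, and less that chromosome's median its difference was 0.044. The WNT sorting receptor gene on the array as GPR177 had -0.27 (adjusted p = 0.52). The secreted inhibitors Sfrp1 (-0.79), Dkk3 (-0.32), Notum (-0.41) and Sfrp5 (-0.16) lay below 0, as did 5 of 6 tested, and the R-spondin genes Rspo1, Rspo2 and Rspo3 had 0.10, 0.23 and -0.17. Their adjusted p ran from 0.296 to 0.821. Over the 73 tested genes of these 8 lists together limma called 0, with 19 at an unadjusted p under 0.05, near the 20.9% of all genes.

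**Figure D4:**
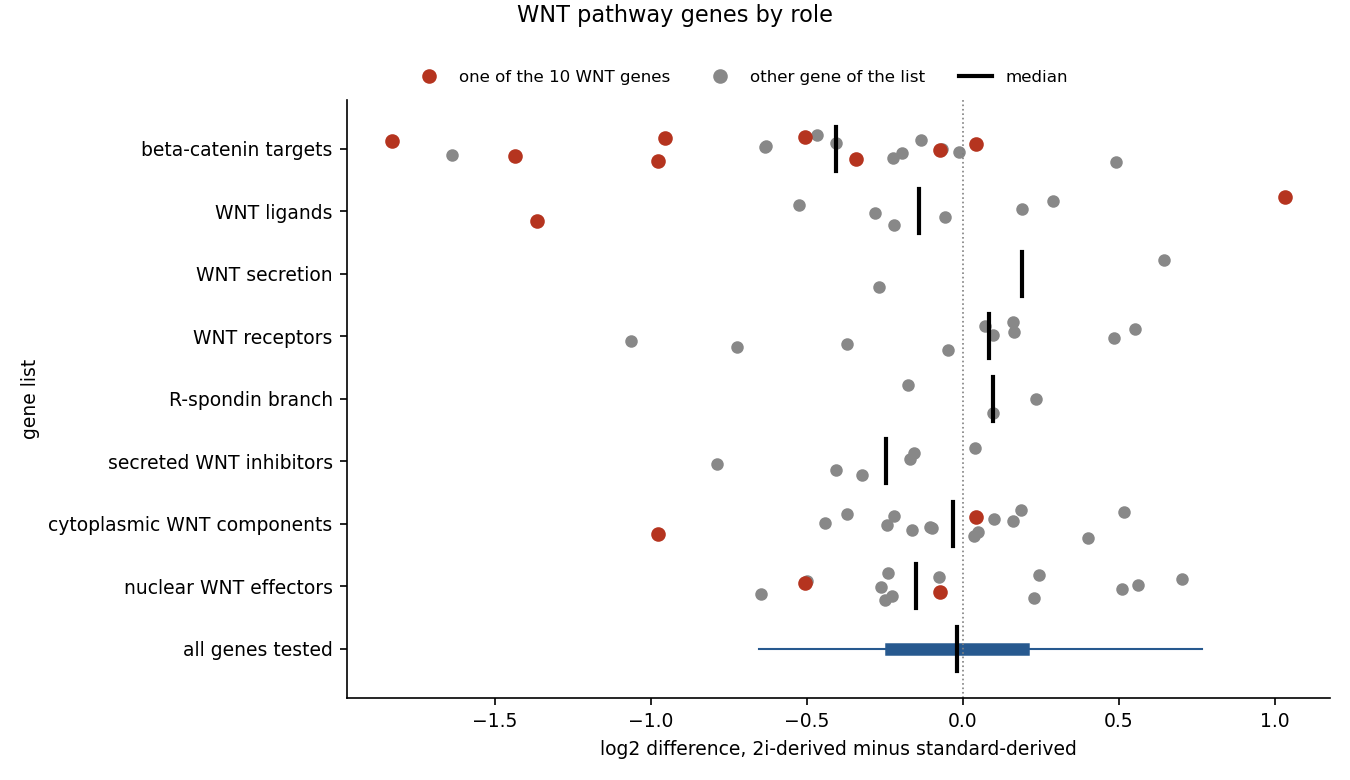
Log2 difference of 2i-derived minus standard-derived samples (horizontal axis) for tested genes of the WNT pathway by role (vertical axis), each point a gene, with the 10 WNT genes in red and black bars for list medians. The blue line and box span the 5th to 95th and the 25th to 75th percentile of all genes tested (-0.65 to 0.77 and -0.23 to 0.19). Targets lie to the left, with a median of -0.41 that includes genes of the chosen 10. The 11 other targets had a median of -0.22, and cytoplasmic components centre on -0.03.

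The genes whose 4 sample values were most like those of Axin2, after centring each gene, were Guk1, LOC383619, Prxl2a, Kif1c and Fut10, by a root mean square distance of 0.05 to 0.08 log2 units among 1845 genes with a range of at least 1. Guk1 encodes guanylate kinase, Kif1c a kinesin motor and Fut10 a fucosyltransferase. Guk1 and Kif1c lie on chromosome 11, as does Axin2. Over 4 samples this likeness is a description only.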

How the data were processed

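Total RNA of 4 samples was measured on 6 Illumina MouseWG-6 v2 arrays. The deposited intensity is the mean bead signal per probe and array, summarised with GenomeStudio 1.0.6 without normalization, per the file headers. A deposited score for detection is a fraction from 0 to 1, and 1 minus it was taken as the detection p. The method behind the deposited log2 table, used as an alternative, is not stated in the labels or headers.

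Intensities were background corrected, quantile normalized and log2 transformed with neqc (limma 3.58.1, R 4.3.3, offset 16), and arrays of a sample were averaged. A probe was kept with a mean detection p under 0.05 in 2 or more samples, and the brightest kept probe stood for its gene. Of 31490 target names 13430 matched a current symbol, 5596 an unambiguous synonym, 12439 stand as on the array and 25 spoilt by a spreadsheet were left out. Groups were compared with limma (lmFit, eBayes with trend, two-sided, Benjamini-Hochberg over 14572 genes), checked on simulated data. Strain and passage were not entered. Comparisons with 1 sample a side have no test. The genes described and all lists were chosen with earlier results of these data known. Of each list the 4 genes with the smallest p are named, plus fixed core components, marker lists being given by counts. Alternatives were the background correction, scaling, filter, probe choice, array A alone, variance model and samples left out. Array number and signal over background limit the precision.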

Additional observations from a re-analysis of the deposited data

How the results depend on the processing

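No paired analysis was possible because the labels give the samples no replicate numbers that groups share. None of the 10 WNT genes was called by limma under any of the 10 alternatives that keep all samples, nor in a fit of all 20021 detected probes, added after seeing the data. Their median log2 difference moved to -0.54 without background correction, -0.57 in the deposited log2 table and -0.97 with detection p under 0.01, which drops Lef1 and Nkd1, and from -0.90 to -0.40 when 1 sample was left out. Genes called over the array, 24 in the report, numbered 0 without background correction, with median scaling, with a robust trend and with the 2i-derived samples counted as 1, 4 without an intensity trend, 12 in the deposited table, 37 with detection p under 0.01 and 48 over all probes. At an unadjusted p under 0.05 there were 3029, 2981, 3035 and 803 genes in the 4 settings with 0 calls. Leaving out 1 sample gave 0 to 6596 genes and 0 to 8 of the 10 WNT genes. Without AFF204#21 8 of the 10 were called and without R1 6, with residual variance estimated only between both 2i-derived samples. Without either 2i-derived sample 0 were called, with 829 and 835 genes at an unadjusted p under 0.05. Log2 differences with 1 sample left out ran from -1.13 to -0.82 for Axin2, -2.25 to -1.41 for Sp5, -1.61 to -1.25 for Cdx1, -0.38 to -0.31 for Ccnd1, -0.66 to -0.35 for Tcf7, -1.54 to -1.19 for Wnt3a, 0.60 to 1.47 for Wnt8a, -1.53 to -0.38 for T, -0.13 to 0.21 for Nkd1 and -0.15 to 0.010 for Lef1. Nkd1 (-0.086 without 2i-RFP+, -0.13 without AFF204#21) and Lef1 (0.010 without AFF204#21) changed sign, as also with -0.037 for Nkd1 in the deposited table and 0.15 for Lef1 on array A alone, and their probes are detected on only some arrays. Wnt3a had -0.89 and Wnt8a 0.52 in the deposited table. The other 8 kept their sign in every alternative run. The genes at least 1.5-fold higher in 2i-RFP+, 28 in the report, numbered 9 without background correction, 6 in the deposited table and 123 on array A alone, with 2, 1 and 2 of the 10 WNT genes among them. The causes were not tested.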
